A study of Mus musculus with 6 samples.

Results

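The genes described here are the FGF (fibroblast growth factor) module of the mouse: 36 genes made up of 22 Fgf genes, 5 receptor genes, 6 feedback inhibitor genes and 3 Etv transcription factor genes. They were chosen by symbol, as every row of the deposited array table annotated to exactly 1 of these symbols. The rule found 39 probe sets for all 36 genes, among 28815 probe sets and 19935 singly annotated genes in the whole table; Spred2, Etv1 and Etv5 had 2 probe sets each. The samples were cervical spinal cords of embryos at embryonic day 11.5, with the dorsal cord and the floor plate removed, hybridised to 6 whole-transcript arrays. In 3 arrays the label gave the genotype as Nkx2.9 knockout and in 3 as wild type, with replicates lettered A, B and C in each group. The series set out to find genes that act downstream of the homeodomain factor Nkx2.9 in spinal accessory motor neurons. The labels gave no design of the knockout allele, no strain, and no statement on whether an array held 1 embryo or a pool, so p-values measure only the spread between these samples, which may be technical.

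FGFs signal through receptor tyrosine kinases together with heparan sulphate, and the signal runs through Ras and ERK to ETS-family factors such as Etv4 and Etv5. The same signal switches on its own inhibitors, the Sprouty and Spred proteins and the ERK phosphatase Dusp6, so that transcripts of these genes are widely read as a gauge of FGF activity. In the early spinal cord FGF signals from the caudal and paraxial tissues hold back neuronal differentiation and help to set Hox codes. Not all FGFs are signals of this kind: Fgf11, Fgf12, Fgf13 and Fgf14, the FGF homologous factors, stay inside the cell, and in neurons they bind voltage-gated sodium channels. They were therefore kept apart from the 18 secreted FGFs.

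Each deposited value was a log expression value, read as log2, from which the median of its probe set over the 6 arrays had been subtracted. A value of 0 is thus the middle of the 6 arrays and not an absence of signal, and the 2 middle arrays carry equal values of opposite sign. Where 3 values of a group are listed, they stand in the order A, B, C. Whether a member was expressed above background, and which of 2 genes was the more abundant, could not be read from these values, nor could the labelled tissue be checked against its defining markers. In tissue samples of this kind, fewer cells of a type and less RNA per cell cannot be told apart. Nkx2-9 itself was not lower in the arrays labelled knockout: the log2 difference was 0.18 (SE 0.11, exact two-sided permutation p = 0.2, with 0.1 the smallest p that 3 arrays against 3 can give). It was 0.10 without knockout B and 0.12 without wild-type A. With a model term for high Xist, described with Fgf13, Nkx2-9 was at 0.01, a comparison of knockout A alone with the wild type. The position of its probes relative to the deleted part was not known, so this checks nothing about the labels; every direction below rests on them, and the arrays are called "labelled knockout". Of the 15 pairs of arrays none held identical values. Knockout C and wild-type B stood apart in the marker genes, as described below. They also had the widest spread over all probe sets, with SDs of 0.19 and 0.14, against 0.10 to 0.12 on the other arrays. The part of this spread in the extremes given below was not tested.

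None of the 39 probe sets differed between genotypes at an adjusted p under 0.05 in limma, a linear model with moderated variances fitted to the whole table, and 0% of all probe sets did (lowest adjusted p = 0.812). At an unadjusted p under 0.05 in limma 2 of 39 were lower in the arrays labelled knockout, against 2.5% of all probe sets, and 0 were higher, against 3.07%. The groups did not overlap in 2 members, both higher in the arrays labelled knockout, against 6.68% of all probe sets; 0 members lay wholly lower, against 4.25%. These shares are near the background. The median log2 difference over the members was -0.02, beside 0.01 over all probe sets.

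**Figure D1:**
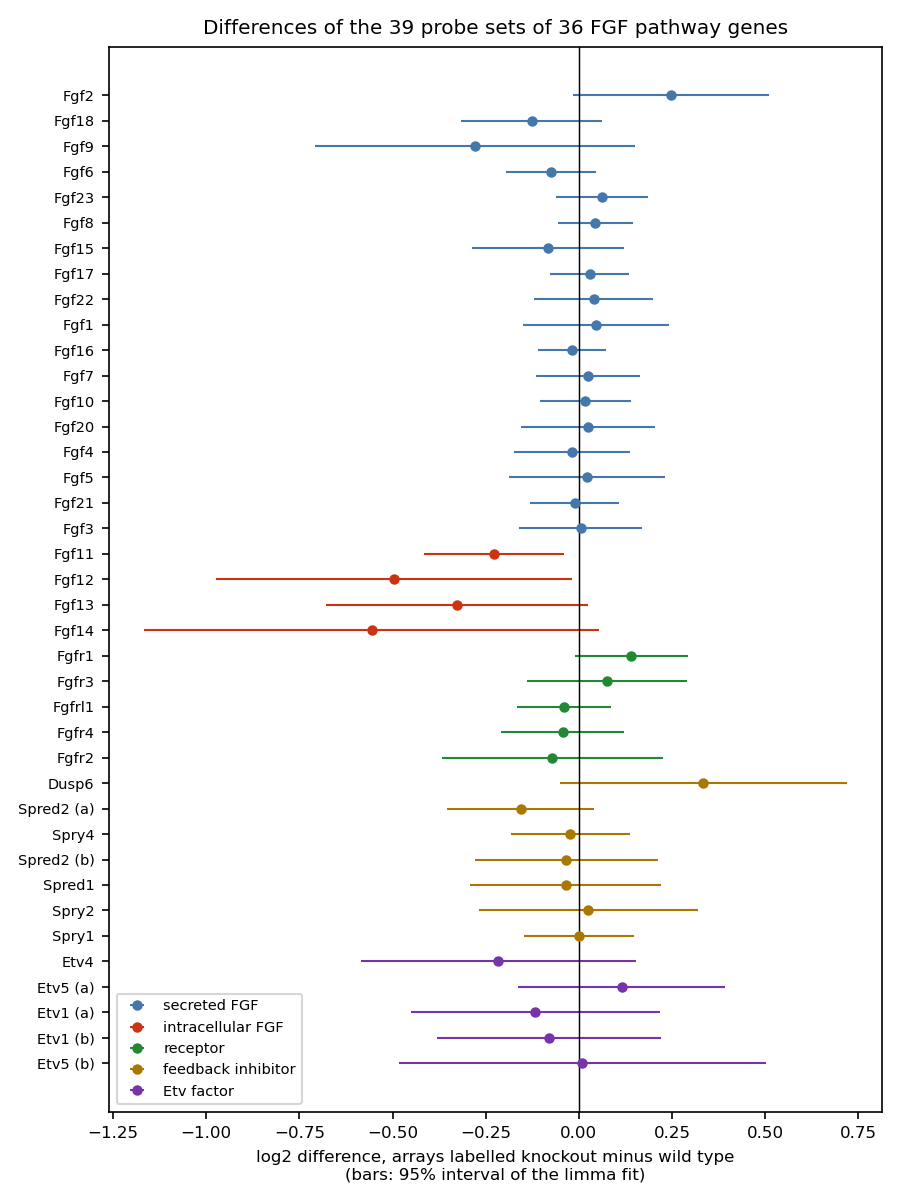
The log2 difference between the arrays labelled knockout and wild type (x axis) is plotted for each of the 39 probe sets, coloured by class, with bars for the 95% interval of the limma fit; a and b mark 2 probe sets of 1 gene. The 4 intracellular FGFs lie between -0.56 and -0.23, while 15 of the 18 secreted FGFs lie within 0.1 of 0.

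The 4 intracellular FGFs were the class with the largest differences: the median was -0.41, and all 4 lay lower in the arrays labelled knockout. Their median range over the arrays, highest minus lowest, was 0.95, beside 0.23 over all probe sets. The lists, this class among them, were chosen with earlier results of these data known. Over all 22 Fgf genes, secreted and intracellular, the median difference was -0.0034, with 11 higher and 11 lower. Because 2 of the 4, Fgf11 and Fgf14, have a single start in the RefSeq promoter table, their upstream windows are shown here with those of Fgf2 and Dusp6, the secreted FGF and the feedback inhibitor of lowest p. Each line gives the 250 bases before the gene start on the gene's strand, from RefSeq on GRCm38.p6. Capitals mark E-boxes, the letters CANNTG, which basic helix-loop-helix factors bind and which read the same on both strands. Fgf14 was chosen after its values were seen.
Fgf11, chr11:69802281-69802530, minus strand: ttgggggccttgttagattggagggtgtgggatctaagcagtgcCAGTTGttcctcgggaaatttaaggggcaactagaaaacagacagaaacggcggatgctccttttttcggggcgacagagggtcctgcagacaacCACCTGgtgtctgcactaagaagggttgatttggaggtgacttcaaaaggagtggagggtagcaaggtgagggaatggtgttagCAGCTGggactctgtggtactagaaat
Fgf14, chr14:124192547-124192796, minus strand: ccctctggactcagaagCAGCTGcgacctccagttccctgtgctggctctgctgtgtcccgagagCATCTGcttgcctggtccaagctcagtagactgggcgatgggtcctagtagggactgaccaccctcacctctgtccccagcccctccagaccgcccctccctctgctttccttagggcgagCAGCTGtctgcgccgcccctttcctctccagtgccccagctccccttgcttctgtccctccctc
Fgf2, chr3:37348403-37348652, plus strand: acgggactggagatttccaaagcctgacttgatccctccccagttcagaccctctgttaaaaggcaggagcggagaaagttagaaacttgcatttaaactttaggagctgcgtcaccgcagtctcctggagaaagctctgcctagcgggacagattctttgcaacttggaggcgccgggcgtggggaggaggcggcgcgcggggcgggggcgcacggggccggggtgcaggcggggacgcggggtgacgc
Dusp6, chr10:99262981-99263230, plus strand: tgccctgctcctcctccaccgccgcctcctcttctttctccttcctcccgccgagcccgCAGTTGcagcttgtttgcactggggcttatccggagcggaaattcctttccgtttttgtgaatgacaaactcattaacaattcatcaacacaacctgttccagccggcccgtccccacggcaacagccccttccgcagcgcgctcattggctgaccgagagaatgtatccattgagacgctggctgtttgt

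The windows of Fgf11 and Fgf14 each held 3 E-boxes, that of Dusp6 held 1 and that of Fgf2 held 0. The table had windows for 27 of the 36 members, 36 windows in all, since some genes have several starts. An E-box stood in 21 of these 36 (58.3%), beside 66.2% of all 32851 windows of the same length, and in 5 of the 10 windows of the intracellular FGFs. The letters CCGGAA on either strand, a core that ETS factors bind, were in 4 member windows (11.1%; 12% of all windows), those of Fgf5, Fgfr4, Fgfrl1 and 1 start of Fgf12. The letters TNAAGTG on either strand, the core of Nkx2-type sites, were in 0 of the 36 and in 10.1% of all windows. Such a match is a description of letters in a short window. The member windows had a median GC content of 62.4%, against 52.4% over all windows.

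Fgf14, which binds sodium channels at the axon initial segment, had the largest difference of all 39 probe sets. Its values were -0.54, 0.07 and -0.99 in the arrays labelled knockout, against 0.06, 0.21 and -0.06 in the wild type. Knockout A and C were below every wild-type array and knockout B stood among them. The difference was -0.56 (SE 0.25, 1.47-fold lower; adjusted p = 0.812 in limma), with a 95% interval of -1.17 to 0.05. It was -0.31 without knockout C and -0.83 without knockout B.

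Fgf12, another partner of these channels, was at -0.21, 0.02 and -0.59 in the arrays labelled knockout. In the wild type it was at 0.17, 0.55 and -0.02. Here too only knockout B reached the wild-type range, by passing wild-type C. The difference was -0.50 (SE 0.20, 1.41-fold; unadjusted p = 0.0439 and adjusted p = 0.812 in limma), and it was -0.33 without knockout C and -0.34 without wild-type B.

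Fgf13, an X-linked gene whose product also binds microtubules in growing axons, was at -0.34, 0.03 and -0.25 in the arrays labelled knockout and at 0.01, 0.42 and -0.01 in the wild type. Its difference was -0.33 (SE 0.15, 1.25-fold; adjusted p = 0.812 in limma) and -0.19 without wild-type B. Xist, the RNA of the inactive X chromosome, was high in the arrays labelled knockout B and C (4.56 and 4.91). It was between -0.25 and 0.11 in the other 4 arrays, so Fgf13 was low in 1 array with high Xist and in 1 without. No wild-type array had high Xist, so a difference that Xist marks, such as the sex of the embryos, is partly mixed with genotype. A model term for high Xist leaves knockout A alone to compare with the wild type. Fgf16, the other X-linked FGF, had the narrowest range of all members, 0.04 from lowest to highest array.

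Fgf11 had the smallest difference of the 4 and the lowest p of all members. It was at -0.12, 0.01 and -0.16 in the arrays labelled knockout and at 0.21, 0.21 and -0.01 in the wild type. The overlap came from knockout B and wild-type C alone, which were the 2 middle arrays. The difference was -0.23 (SE 0.08, 1.17-fold lower; unadjusted p = 0.0246 and adjusted p = 0.812 in limma), with a 95% interval of -0.42 to -0.04.

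**Figure D2:**
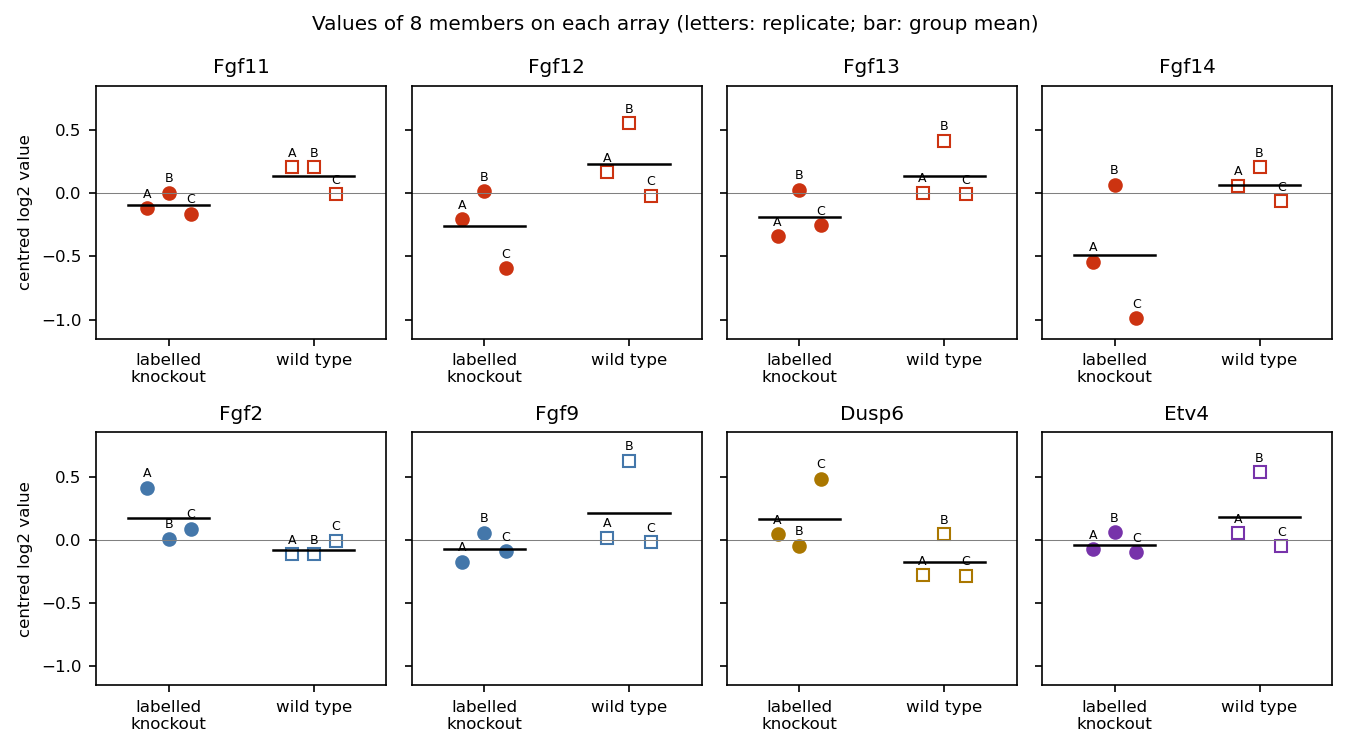
Centred log2 values (y axis) of 8 members on each array, with filled circles for arrays labelled knockout, open squares for wild type, letters for replicates and a bar for the group mean. In Fgf11 to Fgf14 knockout A and C lie below all wild-type arrays and knockout B does not; in Fgf9 and Etv4 wild-type B stands alone at 0.63 and 0.54.

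The median of the neuron markers ranked the arrays in the same order as the class median of these 4 genes, but over a narrower span. Fgf13 itself was lowest in knockout A (-0.34) and not in knockout C (-0.25). The median of 10 neuron markers, such as Elavl3, Tubb3 and Stmn2, was lowest in knockout C (-0.16) and highest in wild-type B (0.16). In these arrays the median of the intracellular FGFs was also lowest (-0.42) and highest (0.31). They were also the arrays of widest spread over all probe sets. Of the 10 markers 9 had lower means in the arrays labelled knockout (median difference -0.13), and 2 had an unadjusted p under 0.05 in limma (5.57% of all probe sets, either direction). In knockout A, where the intracellular FGFs were at -0.27, the neuron markers were at -0.03. The median of 8 motor neuron markers was 0.01 in knockout C, highest in wild-type B (0.14) and lowest in wild-type C (-0.20). The median of 10 progenitor markers was lowest in knockout C too (-0.11), and highest in knockout A (0.04). Markers of dividing cells were highest in knockout C (0.22), followed by knockout A (0.16), and lowest in wild-type B (-0.54). All 11 of their probe sets had higher means in the arrays labelled knockout (median difference 0.30). Of these, 0 had an unadjusted p under 0.05 in limma. Of 7 floor plate markers 5 had higher means there and 2 lower (median difference 0.14). An unadjusted p under 0.05 in limma was reached by 3 of these 7, where 5.57% of all probe sets reached it. Knockout C and wild-type B were then both left out, a choice made after the data were seen. The median difference of the intracellular FGFs was then -0.16 and that of the neuron markers -0.05. It was 0.06 for the markers of dividing cells and 0.12 for those of the floor plate. All 4 genes were still lower, Fgf14 at -0.24, Fgf12 at -0.17 and both Fgf11 and Fgf13 at -0.16. The part of neuron number in these differences was not tested.

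**Figure D3:**
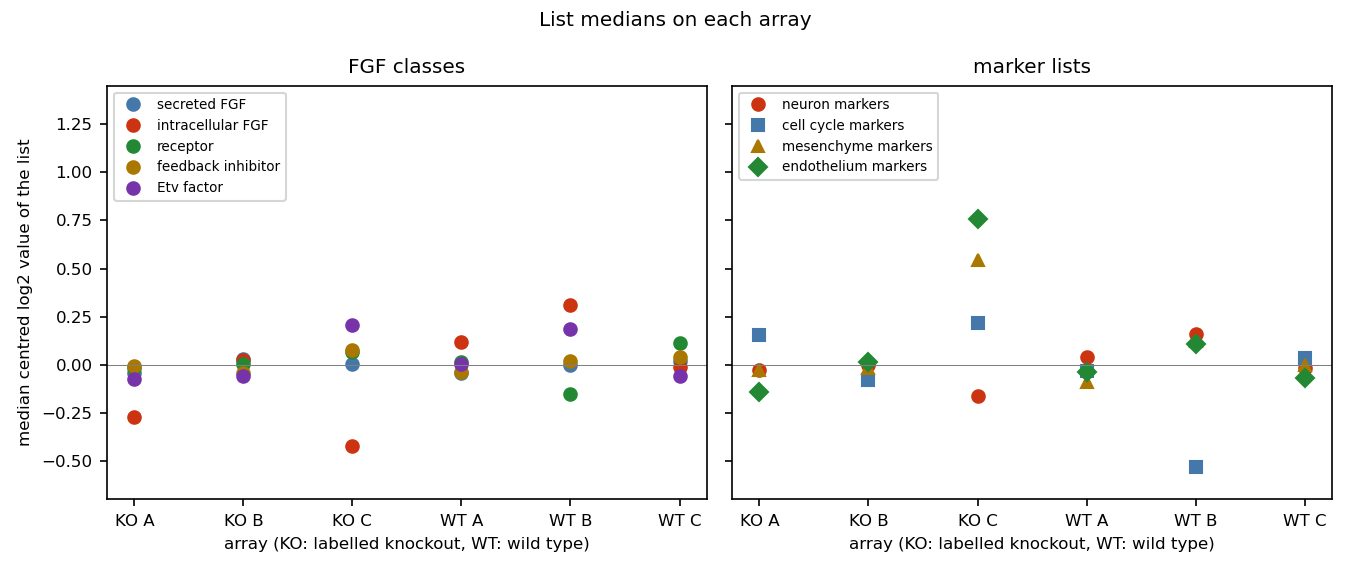
Median centred log2 value (y axis) on each array of the 5 FGF classes (left) and of 4 marker lists (right). Knockout C has the lowest and wild-type B the highest median of both the intracellular FGFs (-0.42 and 0.31) and the neuron markers (-0.16 and 0.16), while mesenchyme (0.54) and endothelium (0.76) markers peak in knockout C.

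The 18 secreted FGFs differed little. Their median difference was 0.02, with 11 higher and 7 lower, and 15 lay within 0.1 of 0. In 12 of the 18 the range over the arrays was below 0.23, the median range of all probe sets, and in 1 it was above the 90th percentile of 0.54. A narrow range is also what a transcript at background would give, and the 2 cases cannot be told apart here.

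Fgf2, a ligand stored in the matrix that drives neural progenitor division in culture, was the secreted FGF of lowest p. The arrays labelled knockout were at 0.41, 0.01 and 0.09, and the wild type at -0.11, -0.12 and -0.01. The groups did not overlap, with knockout B and wild-type C nearly level and knockout A far above the rest. The difference was 0.25 (SE 0.11, 1.19-fold higher; adjusted p = 0.812 in limma), with a 95% interval of -0.01 to 0.51. It was 0.13 without knockout A and 0.49 once high Xist entered the model as a term, where the comparison rests on knockout A alone. Nudt6, which overlaps Fgf2 in RefSeq, was at -0.03 (SE 0.04).

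Fgf9, made by neurons including motor neurons, was lower in the arrays labelled knockout by way of a single wild-type array. It was at -0.17, 0.06 and -0.09 in the arrays labelled knockout and at 0.02, 0.63 and -0.02 in the wild type. The difference of -0.28 (SE 0.18; adjusted p = 0.812 in limma) was -0.07 without wild-type B. Fgf18, of the Fgf8 subfamily, was at -0.13 (SE 0.08), with its highest value, 0.17, also in wild-type B and its lowest, -0.19, in knockout B. It was -0.07 without wild-type B, -0.06 without knockout B and -0.04 with high Xist as a term.

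The ligands best known from neural patterning were close to 0. Fgf8, the signal of the caudal neural plate and the midbrain-hindbrain boundary, was between -0.01 and 0.07 in the arrays labelled knockout and between -0.02 and 0.01 in the wild type. Its difference was 0.04, with a 95% interval of -0.06 to 0.15. Fgf17 of the same subfamily was at 0.03 (-0.08 to 0.14). Fgf15, a Hedgehog-responsive gene of the ventricular zone, was at -0.08 (-0.29 to 0.12), with wild-type C highest at 0.22 and knockout A lowest at -0.12. It was -0.0026 without wild-type C, -0.03 without knockout A and -0.18 with high Xist as a term. Fgf3, Fgf4 and Fgf15 are neighbours in the genome; Fgf3 was at 0.00 (-0.16 to 0.17) and Fgf4, a ligand of the myotome and limb ridge, at -0.02 (-0.17 to 0.14).

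Ligands of mesenchyme and muscle lay in the same narrow band. Fgf10 and Fgf7, mesenchymal ligands of the Fgfr2b receptor form, were both at 0.02, and their 95% intervals ran from -0.11 to 0.14 and from -0.12 to 0.16. Fgf6, a muscle ligand, was at -0.07 (-0.20 to 0.05), and Fgf23, its genomic neighbour and a circulating phosphate hormone, at 0.06 (-0.06 to 0.19). Fgf21, the metabolic hormone, was at -0.01, Fgf16 at -0.02, Fgf20 at 0.02, Fgf5 at 0.02, Fgf22, a synaptic organiser, at 0.04, and Fgf1 at 0.05. Of these 10 genes only Fgf6, Fgf23 and Fgf16 had a difference larger than the SD of both groups, and all 10 intervals held 0.

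**Figure D4:**
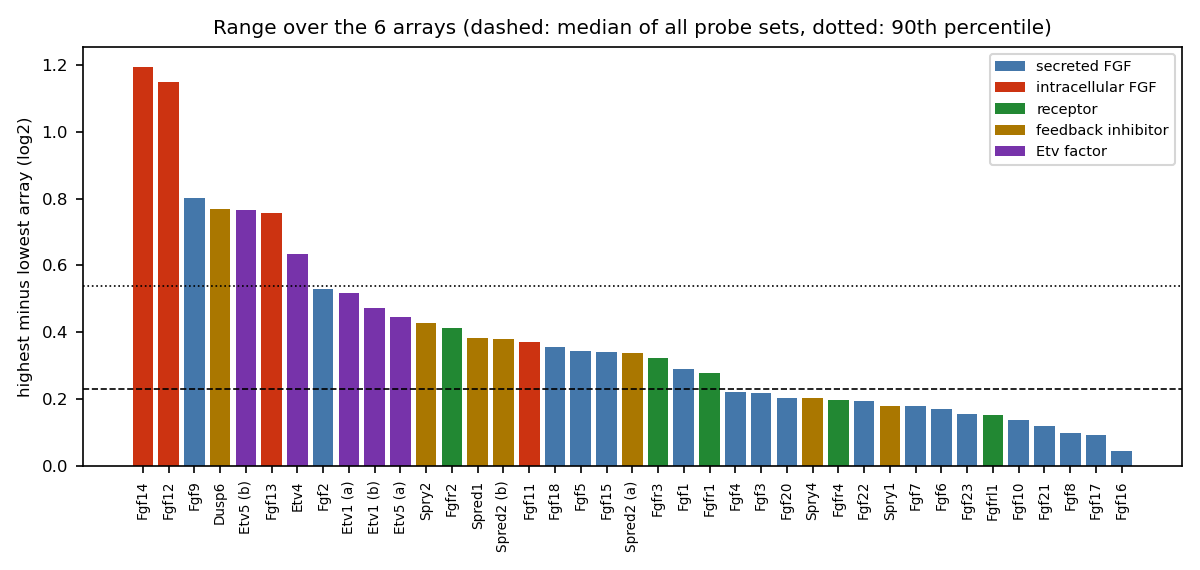
Bars give, for each of the 39 probe sets, the highest minus the lowest array in log2 units, coloured by class; the dashed line is the median over all probe sets (0.23) and the dotted line the 90th percentile (0.54). Fgf14 (1.19) and Fgf12 (1.15) vary most and Fgf16 (0.04) least.

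Among the receptors Fgfr1, the main FGF receptor of the neural tube, was the only one whose groups did not overlap. It was at 0.04, 0.00 and 0.06 in the arrays labelled knockout and at -0.10, -0.21 and -0.00 in the wild type. Knockout B and wild-type C were again nearly level. The difference was 0.14 (SE 0.06, 1.10-fold higher; adjusted p = 0.812 in limma) and 0.09 without wild-type B, or 0.07 without wild-type B and knockout C.

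Fgfr3, a receptor of ventricular zone progenitors, was at 0.08 (SE 0.09); its lowest array was wild-type B (-0.22), and without that array the difference was -0.00081. Fgfr2, also of the ventricular zone, was at -0.07 (SE 0.12) and ranged from -0.16 in knockout A to 0.25 in wild-type C. Fgfr4 was at -0.04 (SE 0.07) and Fgfrl1, the receptor-like protein that lacks a kinase, at -0.04 (SE 0.05). The median of the 5 receptors was -0.04. The 95% intervals of Fgfr4 and Fgfrl1 ran from -0.21 to 0.12 and from -0.16 to 0.09.

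Of the feedback inhibitors Dusp6, the ERK phosphatase, stood highest in the arrays labelled knockout. Its values were 0.05, -0.05 and 0.49 there and -0.28, 0.05 and -0.28 in the wild type. Knockout C was high and wild-type A and C were low, while the other 3 arrays were close together, so the groups overlapped. The difference was 0.33 (SE 0.16, 1.26-fold higher; adjusted p = 0.812 in limma), with a 95% interval of -0.05 to 0.72. Without knockout C it was 0.17, and with high Xist as a term in the model 0.22. Without knockout C and wild-type B, a choice made after the data were seen, it was 0.28 (SE 0.06, adjusted p = 0.9999 in limma).

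The Sprouty and Spred genes were closer to 0 than Dusp6. Spry1 was at 0.00 (SE 0.06), Spry2 at 0.03 (SE 0.12) and Spry4 at -0.02 (SE 0.07), 3 inhibitors of the Ras pathway that FGF induces. Spry2 was high in knockout A (0.22) and wild-type B (0.29) and low in wild-type C (-0.14). Spred1 was at -0.04 (SE 0.11). The 2 probe sets of Spred2 were at -0.16 (SE 0.08) and -0.03 (SE 0.10), both lowest in knockout B, at -0.29 and -0.17. The first was at -0.08 without knockout B and at -0.0040 with high Xist as a term. Over the 7 probe sets of the class the median was -0.02, with 3 higher and 4 lower.

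The Etv factors, the usual transcriptional readout of FGF signalling, had a median of -0.08 over 5 probe sets. Etv4 was at -0.07, 0.06 and -0.10 in the arrays labelled knockout and at 0.05, 0.54 and -0.05 in the wild type. Wild-type B alone stood out, and the difference of -0.22 (SE 0.15; adjusted p = 0.817 in limma) was -0.04 without it. Etv1, which also marks proprioceptive sensory neurons and some motor pools, was at -0.12 (SE 0.14) and -0.08 (SE 0.12) in its 2 probe sets. These disagreed by array: knockout A was at -0.31 in the first and -0.00 in the second, and knockout B at -0.06 and -0.26.

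Etv5 was highest in knockout C in both of its probe sets, at 0.32 and 0.52. Its differences were 0.11 (SE 0.12) and 0.01 (SE 0.20), and without knockout C they were 0.01 and -0.22. Knockout C, the array of widest spread over all probe sets, was also the one in which markers of mesenchyme and of endothelium were highest. The median of 12 mesenchyme markers, such as Twist1 and Col1a1, was 0.54 there and between -0.09 and 0.13 on the other arrays. The median of 8 endothelial markers was 0.76 there and between -0.14 and 0.11 elsewhere. The part of these cells in the values of Dusp6 and Etv5 was not tested.

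**Figure D5:**
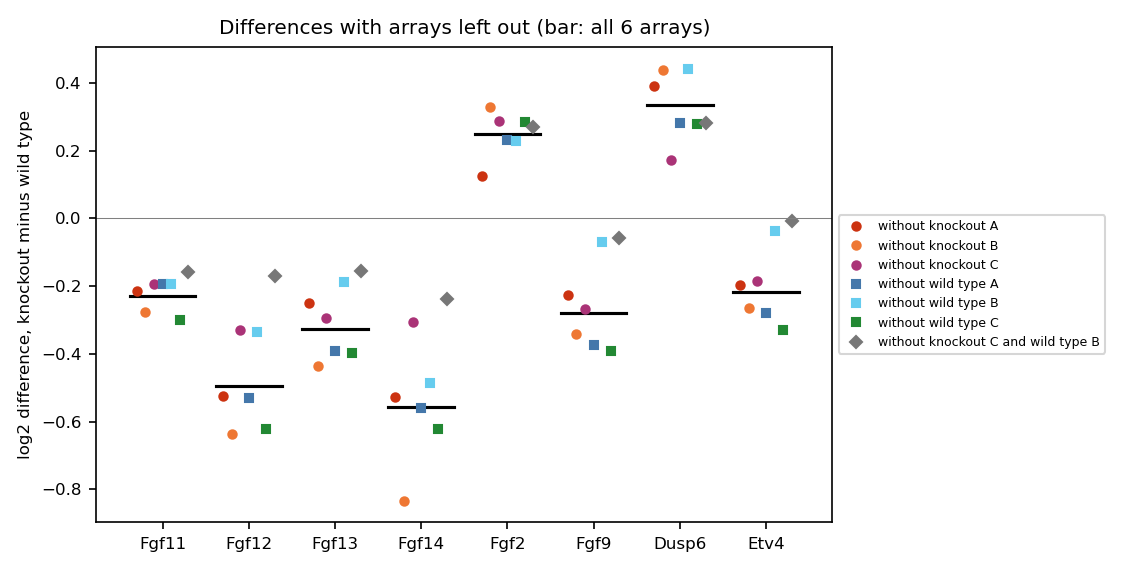
The log2 difference of 8 members (y axis) with all 6 arrays (bar), without each array (circles for arrays labelled knockout, squares for wild type) and without knockout C and wild-type B together (diamonds). Fgf9 and Etv4 go to -0.07 and -0.04 without wild-type B, and the 4 intracellular FGFs stay below 0 in every case drawn.

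Other genes of the pathway, 83 in 4 lists, showed the same absence of calls. Of the 74 probe sets measured for 73 of them, 0 passed an adjusted p of 0.05 in limma, 4 were higher at an unadjusted p under 0.05 in limma (3.07% of all probe sets) and 0 lower (2.5% of all), and the median was 0.00. Among 20 genes of co-receptors and extracellular regulators (median -0.04) Sulf1, which trims heparan sulphate, was at 0.65 (SE 0.33), with wild-type B at -0.99 and knockout A and B at 0.56 and 0.57, and Gpc1, a heparan sulphate proteoglycan, was at -0.11 (SE 0.06). Among 17 genes of the signal relay (median -0.01) Plcg1, the phospholipase recruited by FGF receptors, was at 0.22 (SE 0.07) and the adaptor gene Shc1 at 0.11 (SE 0.06). Sulf1 was at 0.32 without wild-type B.

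Among the 16 probe sets of other negative regulators (median 0.04) Nf1, a Ras GTPase activator, was at 0.12 (SE 0.04) and Lrig1, an inhibitor of receptor tyrosine kinases, at 0.18 (SE 0.07). Among 21 genes that respond to FGF or ERK the median was 0.03, with 16 higher and 5 lower, where 54.9% of all probe sets with 1 symbol were higher. In this list the immediate early gene Fos was at 0.24 (SE 0.09), and Elk4, an ETS factor, at 0.12 (SE 0.06). Fos was highest in knockout C, at 0.30, as Dusp6 was, and Lrig1 too, at 0.22. Without knockout C, Fos was at 0.14 and Lrig1 at 0.12; without knockout C and wild-type B, Lrig1 was at 0.07 and Elk4 at 0.07. Plcg1 was at 0.14 without wild-type C. Of the 74 probe sets, 7 had groups that did not overlap. In 5 the arrays labelled knockout were higher (Plcg1, Nf1, Lrig1, Fos and Rasa2), against 6.68% of all probe sets, and in 2 they were lower (Hs6st1 and Grb2), against 4.25%. The last 3 genes named are given for this count, after their values were seen. None of the 7 passed over all probe sets in limma.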

How the data were processed

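RNA of 6 samples was amplified into sense-strand cDNA, labelled with biotin and hybridised, per the labels' protocols. Per the submitters' processing notes, the authors used RMA, which corrects background, normalizes and summarises probes. Its version, its settings, a genome build and the log base are not given in the sources used here; deposited values were read as log2, the base RMA uses. Each complete probe set had a median of 0 over the arrays within 5e-07, so levels were not left in the values. Of 28815 probe sets, 24 lacked a wild-type C value, none of them a member's.

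Symbols came from the platform annotation, which gave 21780 probe sets 1 symbol, 1605 several and 5430 none; the Entrez identifiers of all 39 member probe sets were in RefSeq (GRCm38.p6). Genotype was the only term in limma 3.58.1 (lmFit, eBayes; R 4.3.3), with Benjamini-Hochberg adjustment over all probe sets; the script was tested on simulated data. SEs and 95% intervals are those of this fit. Windows and figures used Python 3.11.15 and matplotlib 3.10.9. Named were all members, the 2 genes of lowest p in each list of other pathway genes, Nkx2-9 and Xist; Nudt6 was added. Members and lists were chosen with earlier results of these data known, and the motifs after the values were seen. Alternatives were quantile normalization, array centring, array weights, the letter as a block, a robust prior, 1 probe set or the mean per gene, an Xist term (arrays with Xist above 1) and leaving out arrays. An intensity trend and a filter at the 30th percentile need levels and were not run.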

Additional observations from a re-analysis of the deposited data

How the results depend on the processing

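No member passed an adjusted p of 0.05 under any of the 15 alternatives (lowest 0.348, Fgf14 without knockout B), and 21 of the 39 member probe sets kept their direction in all that could be run for them, the 4 intracellular FGFs, Fgf2, Fgf9, Fgfr1, Dusp6 and Etv4 among them. The count of members at an unadjusted p under 0.05 in limma was 2. With the replicate block it was 5, where 8.86% of all probe sets reached it. These 5 were the 4 intracellular FGFs and Fgfr1. The SE of Fgf12 was 0.06 with the block, against 0.20 without it. With arrays left out the count ran from 0 (without knockout C, or without wild-type A) to 6 (without knockout B). It was 1 without knockout A or without wild-type B. The share of all probe sets moved likewise: 5.57% with all arrays, 4.1% without knockout C, 4.5% without wild-type A and 9.96% without knockout B. Over all probe sets the count called was 0 in each setting except without knockout A, where it was 5, none a member. The letters were not taken as pairs, since the labels stated no shared litter, batch or pairing. The deviations of same-lettered arrays correlated at 0.165 for A, 0.216 for B and 0.016 for C over all probe sets. Differently lettered arrays correlated between -0.187 and 0.044, knockout A and B best with their own letter and knockout C with wild-type A. With arrays left out the class medians ran from -0.019 to 0.031 for the secreted FGFs, -0.54 to -0.16 for the intracellular FGFs and -0.054 to 0.043 for the feedback inhibitors. Because Xist was high only in knockout B and C, differences with the Xist term compare knockout A alone with the wild type. With the Xist term the median was -0.047 for the secreted FGFs and -0.25 for the Etv factors, and 6 directions turned: Fgf1 (-0.076), Fgf20 (-0.10), Fgf5 (-0.15), Fgf3 (-0.14), Spry1 (-0.012) and the second Etv5 probe set (-0.30). Quantile normalization turned Spry1 (-0.025) and that Etv5 probe set (-0.060), centring of arrays Fgf3 (-0.00025) and Spry1 (-0.0035), and array weights Fgf3 (-0.0037), Spry1 (-0.0089) and that Etv5 probe set (-0.052). Directions also turned with arrays left out, all in members whose difference was smaller than its SE. The cause of these changes was not tested, those with the Xist term included. Array centring moves the difference of every member by the same amount. Among the ligands the spans were -0.025 to 0.11 for Fgf1, -0.017 to 0.082 for Fgf7, -0.026 to 0.043 for Fgf10, -0.038 to 0.089 for Fgf20, -0.071 to 0.039 for Fgf4, -0.063 to 0.11 for Fgf5, -0.046 to 0.014 for Fgf21 and -0.048 to 0.075 for Fgf3. For the receptors they were -0.049 to 0.14 for Fgfr3 and -0.26 to 0.029 for Fgfr2. Among the inhibitors they were -0.073 to 0.028 for Spry4, -0.13 to 0.058 for the second Spred2 probe set, -0.15 to 0.053 for Spred1, -0.068 to 0.18 for Spry2 and -0.047 to 0.043 for Spry1. For the Etv factors they were -0.25 to 0.012 and -0.18 to 0.019 for the probe sets of Etv1 and -0.22 to 0.16 for the second of Etv5. Signal over background could not be judged, since the values hold no levels, and 3 arrays a group limit the precision.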
